A study of Arabidopsis thaliana with 45 samples.

Results

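Arabidopsis seeds of the quadruple mutant qko were compared with wild-type seeds after 6 h of imbibition in water, across all genes. The comparison uses 3 libraries labelled qko and 3 labelled WT, chosen by their labels, of 45 libraries in 16 groups of the whole study. Each library holds RNA of whole seeds of the ecotype Col0. The labels give qko as a mutant of CYP79B2, CYP79B3, MYB28 and MYB29, and WT as the wild type, both imbibed in plain water on agarose dishes in the light and dark cycle of a growth chamber. Further groups were drawn on only where they bear on this comparison. These were qko and WT seeds left dry, qko and WT seeds imbibed for 6 h in 10 mM KNO3 or in 8 µM KSCN, and, in water, 3 libraries each of myb (the mutant of MYB28 and MYB29 alone) and cyp (the mutant of CYP79B2 and CYP79B3 alone). The labels name neither the alleles nor the seed lots, and they do not say whether the replicates came from separate plants. The p-values measure the spread between replicate libraries, estimated over all 45 libraries in 16 groups, and this spread may be technical.

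Glucosinolates are sulfur-rich defence compounds of the cabbage family, made from amino acids in the mother plant and stored in the seed. CYP79B2 and CYP79B3 turn tryptophan into the first intermediate of the indolic glucosinolates, and the same intermediate feeds the synthesis of camalexin and of some auxin. MYB28 and MYB29 are transcription factors that switch on the genes of the aliphatic glucosinolates, which derive from methionine. When seeds take up water they draw on stored mRNA, rebuild the translation machinery, break down abscisic acid (ABA), the hormone of dormancy, and make gibberellin, which promotes germination and the loosening of the walls around the embryo.

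The transcripts of the 4 targeted genes were rare in every library and did not check the labels. MYB28 had 0 counts in all 6 libraries. CYP79B2 had 0 counts in the 3 libraries labelled qko and 3 counts in the 3 WT libraries together. MYB29 was counted in the libraries labelled qko, with 1, 2 and 3 counts, against 0 in each WT library, and was called higher only without qko replicate 4 (adjusted p = 0.051 with all libraries and 0.048 without it). CYP79B3 stood at 0.558, 0.921 and 1.07 CPM (the normalised read count, relative to library size) in the libraries labelled qko, against 0.207, 0.205 and 0.128 CPM in WT, and the groups did not overlap (log2 fold change 2.20 ± 0.53, adjusted p = 7.4e-04). Throughout, the error of a log2 fold change (qko over WT) is its standard error, and the adjusted p is that of edgeR's quasi-likelihood test with Benjamini-Hochberg adjustment over all loci tested. Of the 3 targeted genes tested, 2 were called higher than in WT in qko in KNO3 and in KSCN. The same number was called higher in myb and in cyp in water, and none was lower in these comparisons. The transcript of CYP79B3 was thus higher, not lower, in libraries labelled as a mutant of this gene. Counts over a whole locus do not show whether its product was lost, so they do not settle the label. Every direction below is therefore that of the libraries labelled qko, which are called qko for short.

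Across the genome 9163 of 18066 loci tested (50.7%) differed between qko and WT seeds in water at an adjusted p under 0.05. Of these, 4663 (25.8% of all tested) were higher and 4500 (24.9%) lower in qko, and the median log2 fold change of all loci was 0.0019. Past a 2-fold change there were 1805 loci higher (9.99%) and 1468 lower (8.13%). The libraries of the groups did not overlap at 9970 loci (55.2%). Replicate 7 of qko lay apart from replicates 4 and 6: the mean chi-square per locus was 71.8 and 72.6 against these, 6.74 between replicates 4 and 6, and 6.05 to 12.9 between WT libraries. Without it 8046 of 18038 loci differed (44.6%), with 4139 higher (22.9%) and 3907 lower (21.7%), and 7401 loci (41.0%) were called in the same direction in both cases. The first principal component of the 6 libraries held 77.0% of the variance and separated qko from WT, and the second, with 12.2%, separated replicate 7 from the rest. Library totals were 21363761 to 22381439 counts in qko and 22442951 to 22759870 counts in WT. Markers of seed tissues gave no common shift: of the tested members of the seed coat (3 of 6), endosperm (2 of 3), green tissue (4 of 5) and pollen (3 of 3) lists, LHCB1.3, a chlorophyll binding protein gene, was the only one that passed (log2 fold change -1.86), and 2 seed coat markers were called lower without replicate 7. Their part in the results was not tested. Their summed levels were 0.795 to 2.68 CPM in qko and 2.21 to 2.67 CPM in WT for seed coat, and 5204 to 10243 CPM in qko and 5558 to 5811 CPM in WT for endosperm. For green tissue they were 12 to 22.7 CPM in qko and 15.1 to 19.3 CPM in WT, and for pollen 4.90 to 9.24 CPM in qko and 4.40 to 5.01 CPM in WT. The seed coat marker TT12 and the endosperm marker ZOU had 0 counts in all 6 libraries. As in any bulk sample, fewer cells of a type and less RNA per cell cannot be told apart.

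Genes that plants switch on when sulfur is short were far higher in qko. Of the 10 sulfur shortage markers tested, 9 rose and none fell, with a median log2 fold change of 3.47, against 25.8% of all loci higher. LSU1 (AT3G49580) encodes a small protein of the response to low sulfur. It reached 296, 307 and 596 CPM in qko, against 1.58, 1.07 and 1.11 CPM in WT (319.9-fold, log2 fold change 8.31 ± 0.34, adjusted p = 1.1e-20). The gap between the groups was wide beside the spread within them, and replicate 7 was the highest of the qko libraries. Its relatives LSU2 and LSU3 were also higher, by 3.66 and 3.80 on the log2 scale. LSU4 had 97, 99 and 207 counts in qko and 0, 1 and 0 counts in WT, a ratio of 417 with a counting interval of 74.3 to 16493. LSU1 to LSU4 are similar in sequence, so the split of reads between them is uncertain.

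GGCT2;1 (AT5G26220) encodes a gamma-glutamyl cyclotransferase that recycles glutathione, the main thiol store of the cell. It had 109, 103 and 166 CPM in qko, against 0.746, 0.658 and 0.936 CPM in WT (162-fold, log2 fold change 7.33 ± 0.25, adjusted p = 7.4e-22). ATSDI1 (AT5G48850, sulfur deficiency induced 1), a repressor of glucosinolate synthesis in leaves, had 259, 273 and 339 CPM in qko, against 34.2, 31.8 and 23.6 CPM in WT (log2 fold change 3.28 ± 0.25, adjusted p = 2.8e-13). Its relative AT1G04770 rose less (log2 fold change 0.92 ± 0.14, adjusted p = 1.0e-06). SHM7 (AT1G36370), a serine hydroxymethyltransferase, stood at 402, 396 and 396 CPM in qko, against 80.0, 72.5 and 83.3 CPM in WT (log2 fold change 2.34 ± 0.12, adjusted p = 4.6e-18). SERAT3;2, a serine acetyltransferase, rose as well (log2 fold change 1.98 ± 0.17, adjusted p = 7.4e-12), while its relative ATSERAT3;1 did not pass (log2 fold change -0.25 ± 0.13, adjusted p = 0.1) and was called lower without replicate 7 (log2 fold change -0.37, adjusted p = 0.034). The libraries of the groups did not overlap at 9 of the 10 markers, beside 55.2% of all loci.

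**Figure D1:**
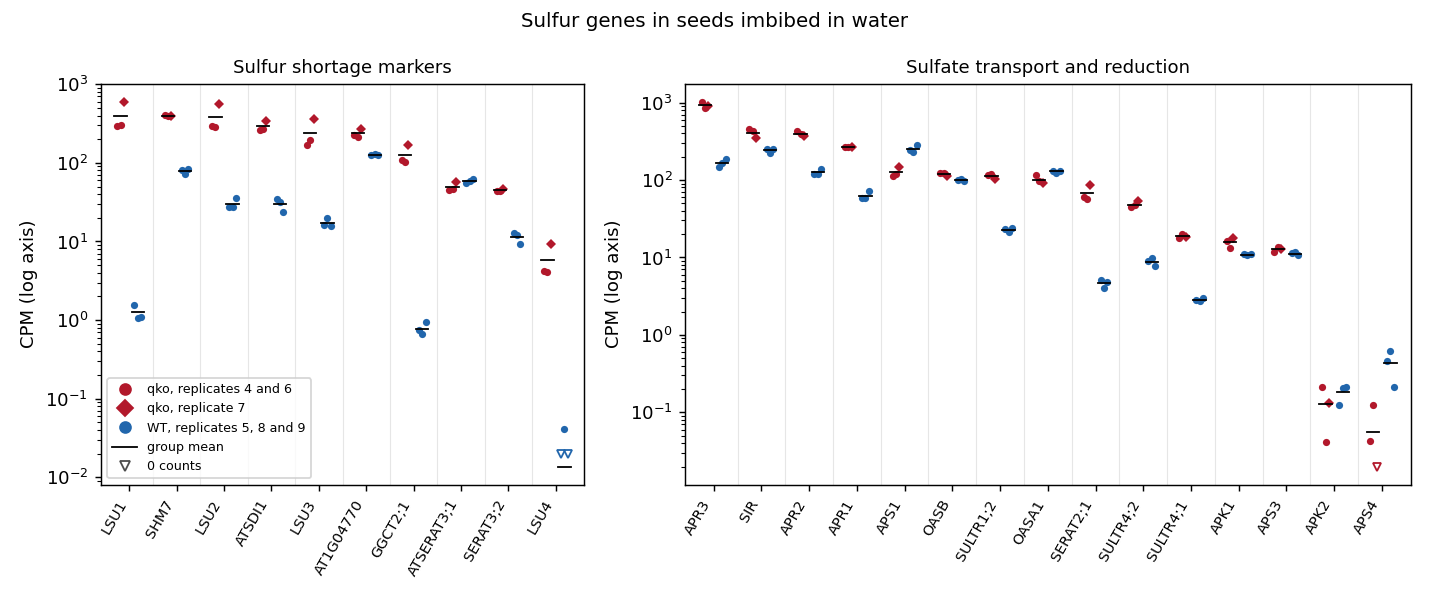
Level of each tested sulfur gene in every library of seeds imbibed in water (CPM, log axis), with sulfur shortage markers on the left and sulfate transport and reduction on the right, qko in red and WT in blue, black bars for group means and open triangles for libraries with 0 counts. LSU1 and ATSDI1 lie far higher in every qko library, and APS1 and OASA1 lie lower in qko.

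Uptake of sulfate and its reduction to cysteine followed a more mixed course. Of 15 tested genes 10 rose and 3 fell, beside 25.8% of all loci higher and 24.9% lower, with a median log2 fold change of 0.76. The sulfate importer SULTR1;2 (AT1G78000) stood at 116, 121 and 102 CPM in qko, against 23.3, 21.1 and 23.7 CPM in WT (log2 fold change 2.31 ± 0.16, adjusted p = 1.2e-14). SULTR4;1 and SULTR4;2, which release sulfate from the vacuole, rose by 2.73 and 2.45 on the log2 scale. All 3 genes of APS reductase, the enzyme that commits sulfate to reduction, were higher. APR3 (AT4G21990), the most abundant of them, had 1019, 838 and 888 CPM in qko, against 145, 166 and 184 CPM in WT (log2 fold change 2.47 ± 0.15, adjusted p = 8.6e-16), and the log2 fold changes of APR1 and APR2 were 2.08 and 1.66. SERAT2;1 (AT1G55920), a serine acetyltransferase that supplies the carbon skeleton of cysteine, had 60.9, 56.9 and 86.3 CPM in qko, against 5.18, 3.99 and 4.81 CPM in WT (log2 fold change 3.87 ± 0.19, adjusted p = 3.0e-18). SIR, the single sulfite reductase, rose by 0.76 (adjusted p = 2.9e-06). The first enzyme of the path moved the other way: APS1 (AT3G22890), an ATP sulfurylase, stood at 113, 118 and 148 CPM in qko, against 247, 232 and 281 CPM in WT (log2 fold change -1.0 ± 0.14, adjusted p = 2.6e-07). In these genes every qko library lay on one side of every WT library.

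Genes for the breakdown of glucosinolates held a near-complete loss and several steep rises. Of 13 tested genes of breakdown and transport 7 rose and 3 fell (7 and 2 without replicate 7), with a median log2 fold change of 0.83. Across all loci 25.8% were higher and 24.9% lower. TGG1 (AT5G26000) encodes the classical myrosinase, the enzyme that releases the toxic products when tissue is crushed. It had 2, 2 and 0 counts in the qko libraries, against 87.1, 83.4 and 92.7 CPM in WT, and the WT to qko ratio of 1526 has a counting interval of 596 to 5602. TGG2, the second classical myrosinase, had 0 counts in all 6 libraries. BGLU28 and BGLU30 are beta-glucosidases known to be induced by sulfur shortage, and act on intact glucosinolates to recover their sulfur. BGLU28 (AT2G44460) had 1126, 1336 and 1079 CPM in qko, against 2.99, 2.01 and 3.96 CPM in WT (395-fold, log2 fold change 8.63 ± 0.43, adjusted p = 3.0e-18). BGLU30 (AT3G60140) had 3815, 3995 and 3504 CPM in qko, against 65.5, 71.3 and 70.4 CPM in WT (54.6-fold, log2 fold change 5.77 ± 0.26, adjusted p = 2.4e-19). Both genes went to high abundance in each qko library, including replicate 7.

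Nitrile specifier proteins steer the breakdown towards nitriles, and nitrilases turn nitriles into acids and ammonia. NSP5 (AT5G48180) stood at 3626, 3364 and 3786 CPM in qko, against 102, 103 and 151 CPM in WT (30.2-fold, log2 fold change 4.92 ± 0.33, adjusted p = 8.1e-15). NSP2, the main nitrile specifier gene of seeds, had 1934, 1846 and 1698 CPM in qko, against 1266, 1343 and 1321 CPM in WT, with no overlap, and did not pass (log2 fold change 0.48 ± 0.26, adjusted p = 0.13), but passed when the 6 water libraries were fitted alone (adjusted p = 0.020). NIT2 (AT3G44300) had 518, 448 and 453 CPM in qko, against 40.7, 51.0 and 50.7 CPM in WT (9.96-fold, log2 fold change 3.32 ± 0.17, adjusted p = 3.1e-18), and its neighbours NIT1 and NIT3 rose by 0.83 and 1.85 on the log2 scale. NIT1 to NIT3 are close copies, so the split of reads between them is uncertain. Of the glucosinolate importers, GTR2 fell (log2 fold change -1.69 ± 0.16, adjusted p = 1.0e-10), and GTR1 passed with all libraries (log2 fold change -0.42 ± 0.16, adjusted p = 0.027) but not without qko replicate 7 (adjusted p = 0.17), WT replicate 5 (adjusted p = 0.054) or WT replicate 8 (adjusted p = 0.063).

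Few aliphatic synthesis genes were counted in seeds. Of 24 aliphatic genes 11 had enough counts to be tested, of which 1 rose and 2 fell. MAM1, MAM3, CYP79F1, CYP79F2 and FMO GS-OX1, which act in this path, had 0 counts in all 6 libraries. The riser was FMO GS-OX5 (AT1G12140), a flavin monooxygenase of side chain oxidation, with 28.6, 30.1 and 23.3 CPM in qko and 23.1, 19.4 and 21.6 CPM in WT (log2 fold change 0.36 ± 0.11, adjusted p = 0.0069), and its call was lost without WT replicate 8 (adjusted p = 0.051) or qko replicate 6 (adjusted p = 0.052). Among the genes that fell, IMD1 of the methionine chain elongation stayed under 1 CPM in both groups. Indolic synthesis and tryptophan supply had 8 genes higher and 3 lower of 18 tested (6 and 3 without replicate 7), with a median log2 fold change of 0.18. Across all loci 25.8% were higher and 24.9% lower (22.9% and 21.7% without replicate 7). CYP81F3 (AT4G37400), a cytochrome P450 that modifies the indole ring, had 14.9, 13.8 and 13.7 CPM in qko, against 0.746, 0.493 and 1.06 CPM in WT (log2 fold change 4.20 ± 0.23, adjusted p = 1.9e-16), and its relative CYP81F2 rose by 1.1 on the log2 scale. GGP1 (AT4G30530), which cleaves the glutathione conjugate in the core path, had 64.6, 65.8 and 75.6 CPM in qko, against 16.9, 14.4 and 15.5 CPM in WT (log2 fold change 2.14 ± 0.11, adjusted p = 4.0e-18). The glutathione transferase GSTF9 fell by 1.32 on the log2 scale, the methyltransferase IGMT5 fell by 1.96, and TSA1 of tryptophan synthesis fell by 0.76. Of 8 regulators tested 5 rose and 2 fell: MYB51, an activator of the indolic genes, rose by 1.75, MYC2, a master factor of jasmonate responses, rose by 1.67, and MYC4 and IQD1 had log2 fold changes of -1.1 and -1.0.

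Jasmonate genes were also higher in qko. Of 17 tested 12 rose and 1 fell (10 and 1 without replicate 7), beside 25.8% of all loci higher and 24.9% lower, with a median log2 fold change of 1.44. AOC2 (AT3G25770), an allene oxide cyclase of jasmonate synthesis, had 14.7, 14.9 and 19.0 CPM in qko, against 0.207, 0.534 and 0.340 CPM in WT (44.8-fold, log2 fold change 5.46 ± 0.25, adjusted p = 2.4e-19). AOS, the allene oxide synthase one step before, rose by 2.49 and the lipoxygenase LOX4 by 2.21 on the log2 scale. JAZ1 (AT1G19180), a repressor that is itself induced by the hormone, stood at 61.4, 62.3 and 61.9 CPM in qko, against 10.7, 12.7 and 9.61 CPM in WT (log2 fold change 2.49 ± 0.10, adjusted p = 1.4e-20). JAZ7 was the 1 gene that fell (log2 fold change -0.66), a call lost without WT replicate 5 or 8 or qko replicate 4 or 6, with no filter on low counts and with the 6 water libraries alone, and JAZ2, JAZ6 and JAZ9 did not pass. VSP2, a late jasmonate marker of leaves, had 0, 0 and 1 counts in qko and 0 in each WT library.

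Genes that clear reactive electrophiles rose in number: 12 of 16 tested were higher and none lower, with a median log2 fold change of 1.61. Across all loci 25.8% were higher and 24.9% lower. OPR1 (AT1G76680), an oxophytodienoate reductase outside jasmonate synthesis, had 109.5, 96.9 and 115 CPM in qko, against 5.60, 6.78 and 8.21 CPM in WT (15.6-fold, log2 fold change 3.96 ± 0.23, adjusted p = 2.1e-16). The glucosyltransferase UGT73B4 (AT2G15490) stood at 102, 101 and 123 CPM in qko, against 11.1, 13.3 and 12.4 CPM in WT (log2 fold change 3.15 ± 0.12, adjusted p = 4.4e-21), and the log2 fold change of its neighbour UGT73B5 was 4.11. The glutathione transferases GSTF8 and GSTU1 rose by 1.66 and 2.4 and the P450 gene CYP81D8 by 2.78 on the log2 scale. GSTF6, GSTF7, GSTU4 and CYP81D11 did not pass. OPR1 shares much sequence with OPR2, and GSTF6 with GSTF7, so the split within these pairs is uncertain. Of 9 defence genes 3 could be tested and all 3 rose, but only 1 was called higher with the 6 water libraries alone and 2 without WT replicate 5. Between qko and WT in KNO3 only 1 of the 3 was called higher, and in KSCN also 1. WRKY33 (AT2G38470), a regulator of camalexin synthesis, had 38.4, 37.8 and 35.5 CPM in qko, against 5.72, 5.71 and 6.12 CPM in WT (log2 fold change 2.67 ± 0.20, adjusted p = 3.0e-13). The others were PR1, with 12 counts over the qko libraries and 1 over the WT libraries, and the camalexin gene CYP71A13, with 16 counts in qko and 1 in WT.

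Messages for seed storage proteins, laid down while the seed matured, were lower in qko. Of the 13 genes of storage proteins and oil bodies 10 fell and none rose (11 without replicate 7), beside 24.9% of all loci lower, with a median log2 fold change of -1.66. Together they made up 4.89% to 6.23% of all counts in qko and 12.1% to 12.3% in WT. CRU2 (AT1G03880), a subunit of the 12S globulin cruciferin, had 94.2, 94.4 and 129.9 CPM in qko, against 3280.2, 3236 and 3355 CPM in WT (31.0-fold lower, log2 fold change -4.95 ± 0.21, adjusted p = 1.5e-20). CRU3 (AT4G28520), the most abundant storage message in WT, had 14822, 14721 and 16318 CPM in qko, against 38853, 39143 and 39625 CPM in WT (log2 fold change -1.36 ± 0.18, adjusted p = 8.1e-08). CRU1 (AT5G44120), the other cruciferin subunit of this list, stood at 20680, 21348 and 25690 CPM in qko, against 25721, 25480 and 26446 CPM in WT, the libraries overlapped, and it did not pass (adjusted p = 0.4). The cruciferin genes thus had unequal log2 fold changes.

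The 2S albumins, small storage proteins rich in sulfur amino acids, differed among themselves too. SESA3 (AT4G27160) had 335, 354 and 913 CPM in qko, against 15176, 16621 and 15415 CPM in WT (29.5-fold lower, log2 fold change -4.88 ± 0.29, adjusted p = 5.5e-16). SESA4 (AT4G27170) had 3.69, 1.55 and 7.76 CPM in qko, against 310.0, 396 and 298 CPM in WT (log2 fold change -6.28 ± 0.49, adjusted p = 4.8e-13). SESA1 and SESA5 had log2 fold changes of -2.43 and -2.01, while SESA2 did not pass (log2 fold change -0.13 ± 0.19, adjusted p = 0.6). SESA1 to SESA4 are close copies and neighbours, so the split of reads among them is uncertain. Replicate 7 held more 2S albumin reads than the other qko libraries at each of these genes and was still below every WT library at SESA1, SESA3, SESA4 and SESA5. Of the oleosins, proteins of the oil body surface, OLEO1 had 3700.3, 3417 and 6158 CPM in qko and 7938, 8186 and 8396 CPM in WT (log2 fold change -0.89 ± 0.23, adjusted p = 0.0019). OLEO4 fell by 1.02 on the log2 scale, and OLEO2 passed only without replicate 7 (log2 fold change -0.61, adjusted p = 0.034, against 0.11 with it). PAP85, a vicilin-like globulin, fell by 1.66, and ATS1, a caleosin of the oil body, fell by 2.30.

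**Figure D2:**
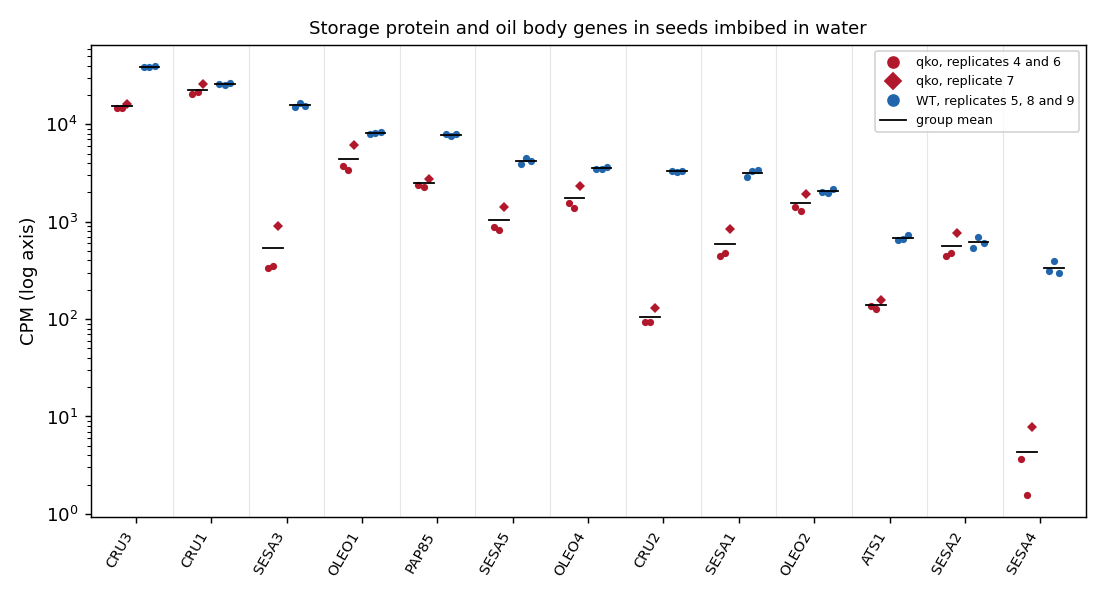
Level of 13 genes for storage proteins and oil bodies in every library of seeds imbibed in water (CPM, log axis), ordered by their mean in WT, with qko in red left of WT in blue, diamonds for qko replicate 7 and black bars for group means. The groups overlap at CRU1 and SESA2, and are widest apart at SESA4, CRU2 and SESA3.

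Late embryogenesis genes, which protect the dry embryo, did not follow the storage genes. Of 9 LEA and dormancy genes 1 rose and 2 fell (1 and 3 without replicate 7), beside 25.8% of all loci higher and 24.9% lower. EM1 (AT3G51810) was higher, with 1620.3, 1608 and 2979 CPM in qko, against 687, 917 and 973 CPM in WT (log2 fold change 1.27 ± 0.26, adjusted p = 1.1e-04), and replicate 7 was the highest library. DOG1 (AT5G45830), the main dormancy gene, had 5.28, 5.11 and 7.41 CPM in qko, against 16.0, 14.8 and 17.3 CPM in WT (2.7-fold lower, log2 fold change -1.43 ± 0.17, adjusted p = 1.3e-08). M17 had a log2 fold change of -0.67. Genes that burn the stored oil gave small differences whose calls rested on single libraries. Of 11 tested, 2 rose and 3 fell with all libraries (25.8% and 24.9% of all loci). Without qko replicate 7, 4 rose and none fell (22.9% and 21.7% of all loci). None rose without WT replicate 8, 1 rose without WT replicate 9 or qko replicate 4 or 6, 1 fell without WT replicate 5, and none passed with the 6 water libraries alone. The lipase gene SDP1 and the thiolase gene KAT2 rose in both cases, with log2 fold changes of 0.32 and 0.29 with all libraries and of 0.37 and 0.42 without replicate 7. SDP1 lost its call without WT replicate 8 (adjusted p = 0.073), and KAT2 lost it without WT replicate 8 or 9 or qko replicate 4 or 6 (adjusted p = 0.055 to 0.15). PCK1, of sugar synthesis from oil, passed with all libraries but not without qko replicate 7 (log2 fold change -0.54 ± 0.15, adjusted p = 0.0035; without that replicate the adjusted p was 0.059). ICL, the isocitrate lyase of the glyoxylate cycle, did not pass (log2 fold change 0.14 ± 0.12, adjusted p = 0.36).

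ABA genes were called in both directions. Of 28 tested 11 rose and 6 fell (9 and 3 without replicate 7), beside 25.8% of all loci higher and 24.9% lower, with a median log2 fold change of 0.27. The breakdown enzymes split: CYP707A2 (AT2G29090), the ABA 8'-hydroxylase that acts early in imbibition, had 48.5, 48.1 and 42.5 CPM in qko, against 135, 120.3 and 175 CPM in WT (log2 fold change -1.63 ± 0.29, adjusted p = 1.3e-05). CYP707A3 (AT5G45340), of the same family, had 31.0, 31.1 and 29.0 CPM in qko, against 3.61, 4.15 and 4.76 CPM in WT (log2 fold change 2.86 ± 0.12, adjusted p = 1.5e-20). On the side of synthesis, ABA2 rose by 1.94 and NCED9 by 1.60 on the log2 scale. The receptor gene PYL5 rose by 1.25. ABI4 (AT2G40220), a transcription factor of the ABA response, had 28.3, 30.0 and 28.7 CPM in qko, against 84.2, 85.4 and 77.2 CPM in WT (log2 fold change -1.5 ± 0.12, adjusted p = 9.0e-13). ABI3 and ABI5, the other ABA-response factors of seeds on this list, had log2 fold changes of -0.23 and -0.13 and did not pass (adjusted p = 0.12 and 0.33), but without qko replicate 6 ABI3 was called lower (adjusted p = 0.032).

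Several gibberellin genes were lower in qko, among them 4 synthesis genes (GA20OX1, GA20OX2, GA3OX1 and GA3OX2). Of 19 tested genes of synthesis and signalling 2 rose and 9 fell (3 and 9 without qko replicate 7, and 1 higher without WT replicate 5 or 9 or qko replicate 6), with a median log2 fold change of -0.26. Across all loci 25.8% were higher and 24.9% lower. GA3OX1 (AT1G15550) and GA3OX2 (AT1G80340) encode the 3-oxidases that make the active hormone. GA3OX1 had 0.558, 0.879 and 0.446 CPM in qko, against 8.58, 6.49 and 6.34 CPM in WT (11.4-fold lower, log2 fold change -3.49 ± 0.29, adjusted p = 4.5e-12). GA3OX2 had 0.386, 0.460 and 0.134 CPM in qko, against 8.17, 7.64 and 3.96 CPM in WT (20.2-fold lower, log2 fold change -4.30 ± 0.60, adjusted p = 4.8e-07). For GA20OX2 (AT5G51810), a 20-oxidase one step earlier, the values were 1.2, 2.97 and 0.268 CPM in qko and 14.8, 15.9 and 14.2 CPM in WT (log2 fold change -3.31 ± 0.31, adjusted p = 4.8e-11). Replicate 7 was the lowest library at these 3 genes, and no qko library reached the lowest WT library. GASA6, a gibberellin-induced gene of germination, fell by 2.11 on the log2 scale. The DELLA repressors did not move as one: GAI fell by 0.85, RGL1 and RGL3 were also lower, RGL2 did not pass with all libraries (log2 fold change 0.21 ± 0.10, adjusted p = 0.095), and without replicate 7 it was called higher (log2 fold change 0.31, adjusted p = 0.019).

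Wall loosening genes included large differences of both signs. Of 12 tested 2 rose and 5 fell (2 and 4 without replicate 7), a share near the 50.7% of all loci called, with a median log2 fold change of -0.07. Expansins loosen the contacts between wall polymers. EXPA10 (AT1G26770) had 51.0, 46.4 and 36.4 CPM in qko, against 189, 171 and 151 CPM in WT (log2 fold change -1.93 ± 0.16, adjusted p = 4.3e-12). EXP3 (AT2G37640) had 6.39, 6.11 and 4.82 CPM in qko, against 42.2, 41.8 and 29.4 CPM in WT (log2 fold change -2.71 ± 0.31, adjusted p = 4.7e-09). EXPA2 (AT5G05290) went the other way, with 87.5, 106 and 64.2 CPM in qko, against 13.1, 20.2 and 4.38 CPM in WT (log2 fold change 2.77 ± 0.56, adjusted p = 9.0e-05), a gene whose level spread widely within each group. EXPA8 fell by 1.48 and the xyloglucan hydrolase gene XTH5 by 2.45 on the log2 scale, the mannanase MAN7 rose by 1.3, and EXPA1 did not pass (log2 fold change 0.18 ± 0.33, adjusted p = 0.67). Of 6 auxin genes tested 1 rose and 3 fell. TAA1 of auxin synthesis stayed near or under 1 CPM in both groups (log2 fold change -1.97), and GH3.5, which conjugates the hormone, rose by 1.33, a call lost without WT replicate 9 (adjusted p = 0.064) or qko replicate 6 (adjusted p = 0.12).

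**Figure D3:**
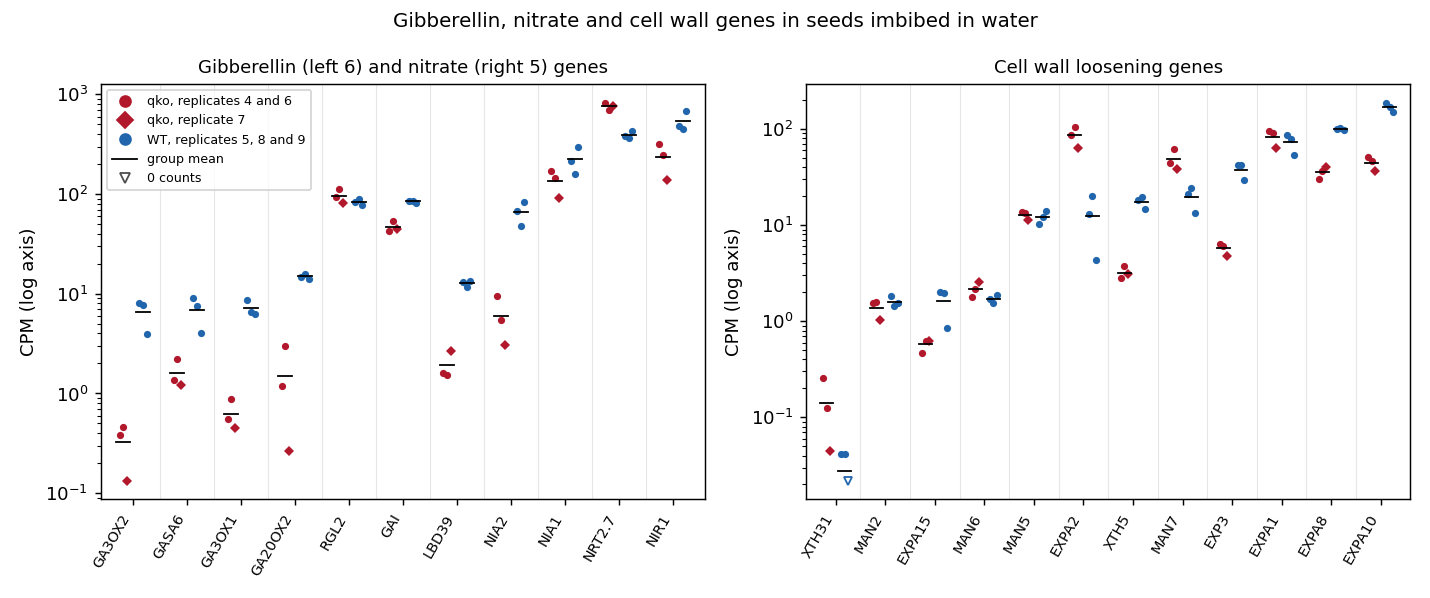
Level of chosen gibberellin and nitrate genes (left) and of all 12 tested wall loosening genes (right) in every library of seeds imbibed in water (CPM, log axis), with qko in red left of WT in blue, diamonds for qko replicate 7, black bars for group means and an open triangle for 0 counts. The gibberellin 3-oxidase genes, NIA2, LBD39, EXP3 and XTH5 lie lower in every qko library, and EXPA2 lies higher.

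Nitrate is known to promote germination, and genes that take it up and reduce it were called both ways, at a share near that of all loci (50.7%, and 44.6% without replicate 7). Of 17 tested 4 rose and 6 fell (4 and 4 without replicate 7), with a median log2 fold change of -0.27. NIA2 (AT1G37130), a nitrate reductase, had 9.39, 5.40 and 3.08 CPM in qko, against 67.8, 48.0 and 84.2 CPM in WT (11.2-fold lower, log2 fold change -3.48 ± 0.29, adjusted p = 3.8e-12). NIA1 (AT1G77760), the second nitrate reductase, had 172, 146 and 90.3 CPM in qko, against 214, 159.9 and 299.8 CPM in WT, the libraries overlapped, and its call was lost without replicate 7 (log2 fold change -0.72 ± 0.30, adjusted p = 0.046; without that replicate the adjusted p was 0.23, and 0.065 to 0.26 without qko replicate 6 or WT replicate 5 or 9). NIR1 (AT2G15620), the nitrite reductase, stood at 316, 247 and 139 CPM in qko, against 482, 448 and 683 CPM in WT (log2 fold change -1.2 ± 0.30, adjusted p = 0.0011). LBD39, a nitrate-induced repressor, fell by 2.72 on the log2 scale, while NRT2.7, the nitrate transporter of the seed vacuole, rose by 0.96. In ammonium assimilation 2 of 9 tested genes rose and 4 fell (3 and 3 without replicate 7). GDH2 (AT5G07440), a glutamate dehydrogenase, had 1061, 959 and 1031 CPM in qko, against 91.3, 80.5 and 119 CPM in WT (10.5-fold, log2 fold change 3.39 ± 0.23, adjusted p = 7.7e-15), and the glutamine synthetase GLN1;1 had 42.8, 43.4 and 39.0 CPM in qko, against 149, 133 and 152 CPM in WT (log2 fold change -1.79 ± 0.13, adjusted p = 4.6e-14). ASN1, an asparagine synthetase, did not pass (log2 fold change 0.01 ± 0.19, adjusted p = 0.97). Of 6 genes of cyanide and thiocyanate metabolism 2 rose and 2 fell: the alternative oxidase AOX1A rose by 1.69, and CYSC1, which detoxifies cyanide with cysteine in mitochondria, fell by 1.5.

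Chaperone genes were higher at some members, and the count rested on single libraries. Of 12 heat shock genes 5 rose and 1 fell with all libraries, 7 rose and 1 fell without qko replicate 7, and 3 rose without qko replicate 6. With all libraries the share called was near the 50.7% of all loci, of which 25.8% were higher and 24.9% lower. HSP17.6II (AT5G12020), a small heat shock protein, had 693, 708 and 640.1 CPM in qko, against 232, 270.3 and 229.7 CPM in WT (log2 fold change 1.48 ± 0.23, adjusted p = 1.7e-06). HSP101, a chaperone that dissolves aggregates, had 2519.7, 2136 and 1295 CPM in qko and 1372, 1281 and 1549 CPM in WT, with replicate 7 inside the WT range, and passed only without that replicate (adjusted p = 0.034, against 0.12 with it). HSP90.1 passed in both cases (log2 fold change 0.79 ± 0.31, adjusted p = 0.03) but not without qko replicate 4 (adjusted p = 0.15), qko replicate 6 (adjusted p = 0.093), WT replicate 5 (adjusted p = 0.081) or WT replicate 8 (adjusted p = 0.10). HSFA9 (AT5G54070), the heat shock factor of maturing seeds, was lower, with 15.7, 13.4 and 30.7 CPM in qko, against 53.6, 51.3 and 55.7 CPM in WT (log2 fold change -1.43 ± 0.30, adjusted p = 1.4e-04). Some ribosome genes were lower by small amounts. Of 16 cytosolic ribosomal protein genes 8 fell and none rose (3 without WT replicate 8, 4 without qko replicate 4, 5 without WT replicate 5 and 6 without qko replicate 7), with a median log2 fold change of -0.38. Across all loci 24.9% were lower and 50.7% were called in either direction. RPL5B (AT5G39740) had 232, 273 and 228 CPM in qko, against 363, 414 and 323 CPM in WT (log2 fold change -0.58 ± 0.13, adjusted p = 4.3e-04), a gene whose close copy RPL5A leaves the split of reads uncertain. Of 7 ribosome biogenesis genes 6 fell and 1 rose. The fibrillarin FIB2 (AT4G25630) had 119, 152 and 96.8 CPM in qko, against 293, 319.9 and 248 CPM in WT (log2 fold change -1.23 ± 0.17, adjusted p = 1.8e-07), CBF5, the pseudouridine synthase, fell by 0.83, NUC1, a nucleolin, fell by 0.70, and its relative NUC2 rose by 0.96.

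Outside these lists were further large differences. AT2G32487, an uncharacterized protein gene, had 7.98, 10.0 and 13.2 CPM in qko and 0 counts in each WT library, at least 83.1-fold higher against a floor of 3 counts per library. AT1G61320, an F-box-like protein with leucine-rich repeats, had 5.83, 4.85 and 4.95 CPM in qko and 0 counts in WT, at least 41.7-fold higher. The mitochondrial locus ATMG00590 had 4.46, 2.34 and 11.6 CPM in qko and 0 counts in WT (at least 49.0-fold higher), and the loci of the mitochondrial genome together took 0.0732%, 0.0786% and 0.170% of counts in qko, against 0.0518%, 0.0509% and 0.0392% in WT. The part of that share in the result was not tested. The remaining leaders were counted in both groups. AT1G12030, which RefSeq lists with a domain of unknown function, had 396, 388 and 506 CPM in qko, against 1.95, 2.96 and 2.76 CPM in WT (168-fold, log2 fold change 7.39 ± 0.18, adjusted p = 6.4e-27). AT3G05400, a sugar transporter by its RefSeq family, had 189, 178 and 153 CPM in qko, against 0.871, 0.658 and 0.680 CPM in WT (236-fold, log2 fold change 7.87 ± 0.22, adjusted p = 2.8e-25). AST56 (AT1G77990), a sulfate transporter that was not on the sulfate list, had 19.7, 21.6 and 21.3 CPM in qko, against 0.249, 0.288 and 0.128 CPM in WT (94.3-fold, log2 fold change 6.52 ± 0.25, adjusted p = 2.7e-21). AT3G16330 rose by 6.32 on the log2 scale.

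On the lower side, AT5G45650, a subtilase-type protease, had 5, 2 and 0 counts in qko, against 19.8, 17.3 and 8.34 CPM in WT, a WT to qko ratio of 151 with a counting interval of 73.3 to 378. AT1G68240, a bHLH transcription factor, had 1.46, 1.59 and 0.536 CPM in qko, against 33.1, 39.0 and 39.3 CPM in WT (31.1-fold lower, log2 fold change -4.94 ± 0.26, adjusted p = 2.1e-17). OPT6 (AT4G27730), an oligopeptide transporter, stood at 7.16, 6.28 and 2.68 CPM in qko, against 152, 127 and 106 CPM in WT (23.8-fold lower, log2 fold change -4.57 ± 0.30, adjusted p = 4.1e-15). DIN10 (AT5G20250), a raffinose synthase family gene induced in darkness, had 2.19, 1.38 and 0.625 CPM in qko, against 56.4, 33.8 and 27.6 CPM in WT (log2 fold change -4.80 ± 0.51, adjusted p = 1.1e-09). PDF1, a protodermal factor of the outer cell layer, fell by 4.57 on the log2 scale, and the ABC transporter gene ABCG35 by 4.67.

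The differences in water were set against those in dry seeds of the same genotypes, which are other libraries. Of the 9163 loci called in water, 4678 were called in the same direction in dry seeds (51.1% of the calls in water and 52.9% of the 8844 calls in dry seeds, which were 49.0% of loci tested, 25.4% higher and 23.5% lower), and 610 were called in the opposite direction. The difference itself, tested as an interaction term, passed at 5013 loci (27.7%), of which 2553 (14.1%) moved up in qko relative to WT from the dry to the imbibed state and 2460 (13.6%) moved down. With 1 library left out in turn, replicate 7 of qko in water among them, 4209 to 4935 loci passed. The interaction values below come from all libraries. Sulfur shortage markers were already higher in dry qko seeds, with 9 of 10 called and a median log2 fold change of 4.50. In the interaction 5 of the 10 moved down and none up, among them LSU2 (interaction -1.62 ± 0.38, adjusted p = 0.0015) and SHM7 (-0.70 ± 0.16, adjusted p = 0.0012). SERAT2;1 moved up (2.63 ± 0.29, adjusted p = 1.6e-08), with 10.4 ± 1.47 CPM in dry qko and 4.41 ± 1.19 CPM in dry WT (SD, n = 3 each). APS1 moved up as well (1.32 ± 0.20, adjusted p = 4.2e-06), with a log2 fold change of -2.32 in dry seeds.

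In other lists members moved down or up between the states. In dry qko seeds 25.4% of all loci were higher and 23.5% lower, and in the interaction 14.1% moved up and 13.6% down. Of the 19 gibberellin genes 5 were higher and 1 lower in dry qko seeds, and 7 moved down in the interaction, GAI among them (-1.08 ± 0.16, adjusted p = 2.2e-06). The wall genes EXPA10 (-1.90 ± 0.44, adjusted p = 0.0013), EXP3 (-2.37 ± 0.57, adjusted p = 0.0018) and XTH5 (-2.81 ± 0.36, adjusted p = 3.2e-07) moved down too, and none of the 3 passed in dry seeds (adjusted p = 0.96, 0.58 and 0.28). Oil breakdown genes were higher in dry qko seeds at 8 of 11 and lower at none, and the same number moved down in the interaction, such as SDP1 (-1.05 ± 0.15, adjusted p = 1.7e-06), KAT2 (-1.01 ± 0.16, adjusted p = 8.9e-06) and ICL (-0.71 ± 0.18, adjusted p = 0.0022). Among ribosomal protein genes 6 of 16 were higher and none lower in dry seeds, and 8 moved down. Heat shock genes ran the other way: in dry qko seeds 2 of 12 were higher and 6 lower, and in the interaction 5 moved up and 1 down. HSP101 was lower in dry qko seeds (499 ± 29.3 CPM in qko and 978 ± 13.0 CPM in WT, SD, n = 3 each) and moved up (1.47 ± 0.39, adjusted p = 0.0039). DIN10 was scarce in dry seeds, with 2.30 ± 0.473 CPM in qko and 0.238 ± 0.163 CPM in WT, and changed its sign between the states (interaction -8.03 ± 1.11, adjusted p = 1.0e-06). Storage genes were lower in both states, with 10 of 13 lower in dry seeds, 1 higher (CRU1, log2 fold change 0.53) and 2 that moved down in the interaction, CRU2 (-1.3 ± 0.25, adjusted p = 1.2e-04) and CRU1 (-0.73 ± 0.27, adjusted p = 0.036).

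**Figure D4:**
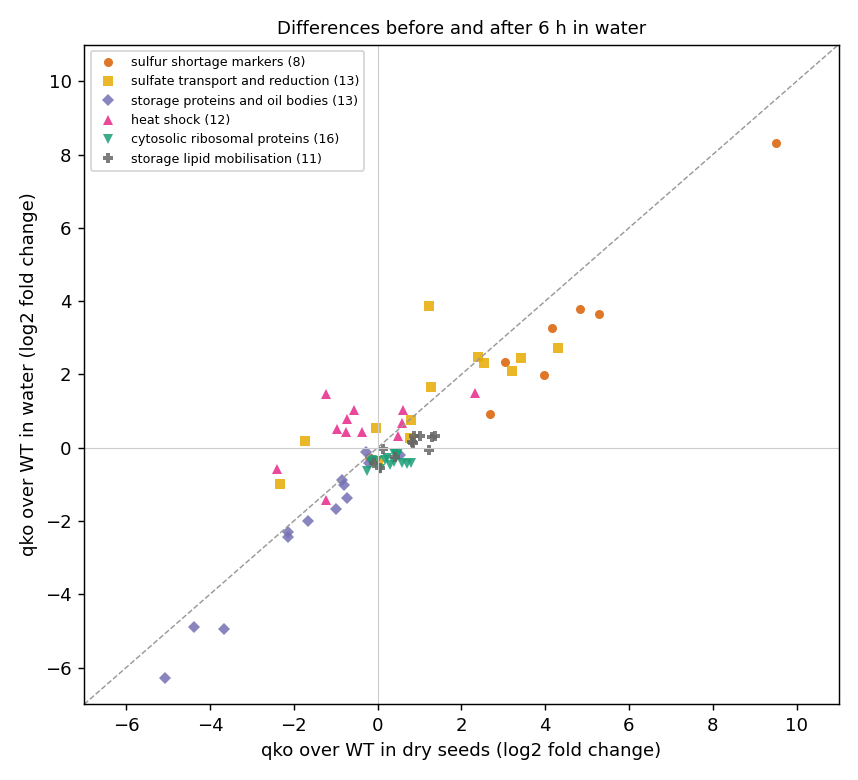
Log2 fold change of qko over WT in dry seeds (horizontal axis) and in water (vertical axis) for 73 genes of 6 lists, each point 1 gene, leaving out genes with a group under 3 counts per library, with a dashed line of equal change. Sulfur shortage markers lie to the upper right, mostly under the line, storage genes to the lower left, and oil breakdown and ribosomal protein genes under the line near 0.

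Whether the same differences were seen with salts in the water was read from separate libraries of both genotypes. The qko libraries carry the replicate numbers 4, 6 and 7 in water and in both salts. The labels do not say whether same-numbered libraries share seeds, and pairing between water and salts was not tested. In KNO3 8947 loci differed between qko and WT (49.5%, with 25.2% higher and 24.4% lower), and 7601 of the calls in water were made there in the same direction (83.0% of the water calls and 85.0% of those in KNO3). In KSCN 9509 loci differed (52.6%, with 27.0% higher and 25.6% lower), and 8022 calls were shared in direction (87.5% of the water calls and 84.4% of those in KSCN). All 3 comparisons together held 7056. The sulfur shortage list had a median log2 fold change of 3.51 in KNO3 and 3.54 in KSCN, and the storage list -1.70 and -1.39. Of the 12 heat shock genes 2 were higher and 2 lower in qko in each salt, and of the 16 ribosomal protein genes 2 were lower in KNO3 and 11 in KSCN, with none higher. NIA2 was lower in qko in both salts (log2 fold change -4.18 in KNO3 and -3.67 in KSCN), as was GA3OX2 (-4.24 and -4.06). Replicate 7 of qko lay apart in these groups as well, with a mean chi-square per locus of 76.1 and 77.1 in KNO3 and 59.4 and 65.7 in KSCN against the other replicates, and not in dry seeds (6.84 and 12.7).

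The mutants of gene pairs in water were compared with qko directly. Against myb 4360 loci differed (24.1%), with 2312 higher (12.8%) and 2048 lower (11.3%) in qko. With 1 library left out in turn, replicate 7 of qko among them, 3027 to 4303 loci differed. The list counts and genes below come from all libraries. Against cyp 13462 differed (74.5%), with 6916 higher (38.3%) and 6546 lower (36.2%) in qko. Between qko and myb the sulfur shortage list had 5 genes higher and none lower, the sulfate list 8 and none, and electrophile detoxification 11 and 2. SERAT2;1 averaged 68.0 ± 15.9 CPM in qko and 26.7 ± 2.7 CPM in myb (SD, n = 3 each; log2 fold change 1.35 ± 0.17, adjusted p = 5.5e-07). WRKY33 averaged 37.2 ± 1.56 CPM in qko and 19.6 ± 1.57 CPM in myb (log2 fold change 0.93 ± 0.19, adjusted p = 4.4e-04), and AOX1A 34.3 ± 4.44 CPM in qko and 13.8 ± 0.844 CPM in myb (1.32 ± 0.19, adjusted p = 7.4e-06). On the lower side were 9 of 19 gibberellin genes and none higher, 5 of 12 wall genes, 12 of 16 ribosomal protein genes, 6 of 7 ribosome biogenesis genes and 6 of 13 storage genes. GA20OX2 averaged 1.48 ± 1.37 CPM in qko and 7.84 ± 2.04 CPM in myb (-2.38 ± 0.32, adjusted p = 1.9e-06), and EXP3 5.77 ± 0.838 CPM in qko and 15.5 ± 2.43 CPM in myb (-1.43 ± 0.31, adjusted p = 0.0011). At BGLU28, BGLU30 and ATSDI1 the difference did not pass (log2 fold change 0.57 ± 0.30, adjusted p = 0.16; 0.22 ± 0.21, adjusted p = 0.48; -0.13 ± 0.23, adjusted p = 0.73).

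The comparisons of myb and cyp with WT in water share the WT libraries with that of qko, so their values are given side by side without a test of likeness. LSU1 had a log2 fold change of 8.31 in qko, 7.69 in myb and -0.93 in cyp, each over WT. NSP5 had 4.92 in qko, 4.05 in myb and -1.84 in cyp, and the storage gene CRU2 had -4.95 in qko, -4.40 in myb and -2.02 in cyp. GA3OX2 had a log2 fold change of -4.30 in qko, -2.19 in myb and 3.03 in cyp, and EXPA10 had -1.93 in qko, -0.89 in myb and 1.48 in cyp. The direct test of qko against cyp gave -7.33 ± 0.55, adjusted p = 2.9e-13 for GA3OX2 and -3.42 ± 0.17, adjusted p = 9.2e-19 for EXPA10. Of the 19 gibberellin genes 15 were lower and 4 higher in qko than in cyp, and all 16 ribosomal protein genes were lower. All 12 heat shock genes and all 9 LEA and dormancy genes were higher in qko than in cyp. These counts stand beside 74.5% of all loci called between qko and cyp, 38.3% higher and 36.2% lower in qko.

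**Figure D5:**
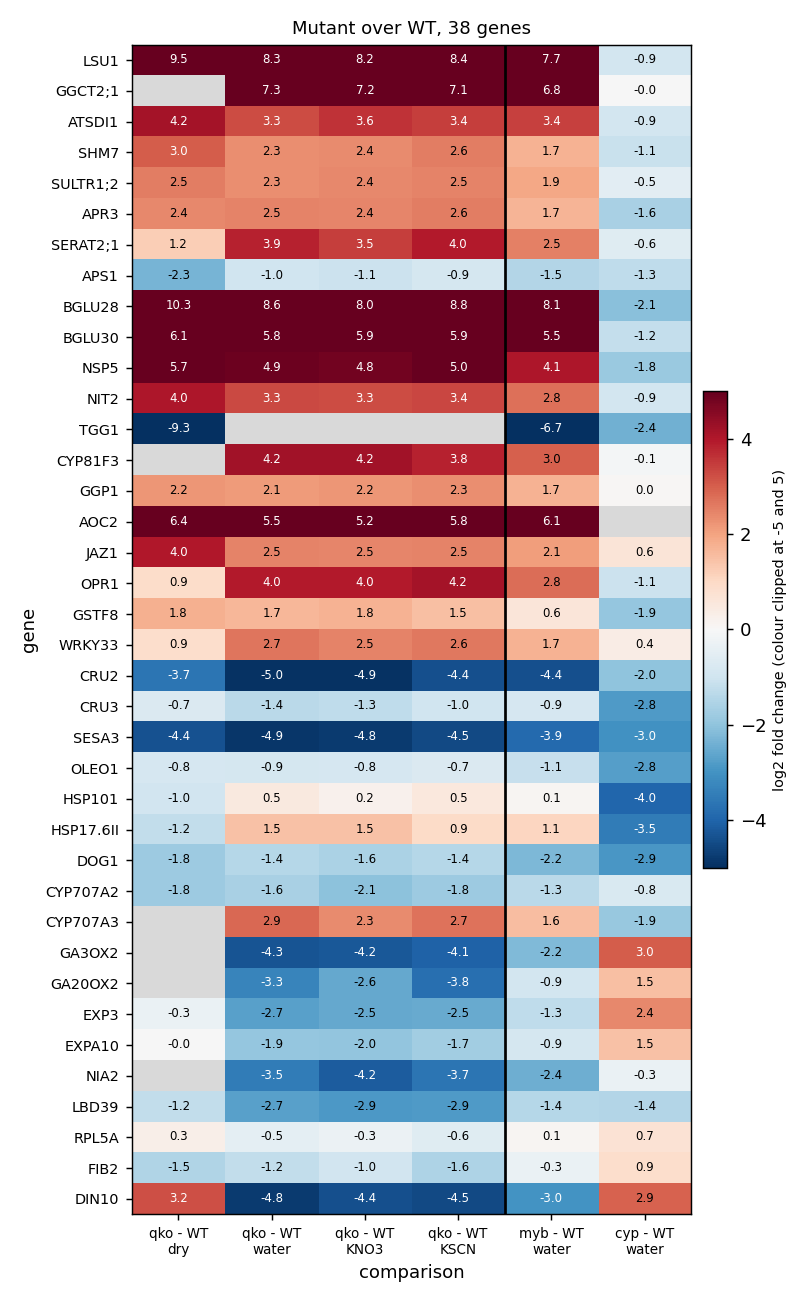
Log2 fold change of each mutant over WT for 38 genes (rows), with qko in dry seeds, water, KNO3 and KSCN left of the black line and myb and cyp in water right of it; the colour is clipped at -5 and 5, and grey cells have a group under 3 counts per library. The 3 imbibed qko columns are close to each other. The cyp column has the opposite sign to the qko column in water at genes lower in qko, such as GA3OX2, EXPA10, EXP3 and DIN10, and at genes higher in qko, such as LSU1 and NSP5.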

How the data were processed

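Whole-seed RNA was sequenced as paired-end reads on the DNBseq platform, per the labels' protocols. The authors deposited 1 table of estimated counts per transcript. Salmon is named in the submitters' processing notes, and its version, the transcript set, the genome build and the strand of the kit were not given in the sources used here. Estimated counts of 48268 transcripts were summed to 27587 loci and rounded to whole numbers. Gene names came from RefSeq (27392 loci matched). No coordinates are given.

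Loci were filtered with filterByExpr (minimum count 10, minimum total 15), which left 18066 and removed 9521. All 45 libraries were fitted together in edgeR 4.0.16 (R 4.3.3) with 16 groups, TMM scaling and the quasi-likelihood test, and p-values were adjusted over all 18066 loci. CPM are TMM-scaled. The standard error is the absolute log2 fold change over the square root of F. Totals ran from 18097331 to 22910834 counts per library. A floor of 3 counts per library bounds ratios against 0, and counting intervals cover counting error only. On simulated counts for the water comparison the procedure called 44 of 67 loci changed 1.5-fold, 62 of 67 changed 2-fold and 66 of 66 changed 4-fold, and 11 of the unchanged loci. Only these loci were changed, far fewer than were called in the real data. None of them was rare in WT, and no library was set apart, so the simulation does not cover rare genes or a library like qko replicate 7.

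The 6 libraries, the 27 lists (347 genes, 291 tested) and the tests were chosen with earlier results of these data known. Named genes were the targeted genes, up to 4 passing genes per list with the largest change, and the 12 largest rises and falls that held without qko replicate 7 with no overlap, 96 in all, of which 1 is not reported here. Others were added after their values were seen. Alternatives were other scalings, no filter, the 6 water libraries alone, DESeq2 1.42.0, a 2-fold threshold, a replicate block and each library left out in turn.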

Additional observations from a re-analysis of the deposited data

Results flagged for a closer look

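The difference between qko and WT was not the same in water and in dry seeds at the genes below, by the interaction term of edgeR's quasi-likelihood fit (adjusted p under 0.05 over all loci). Each value is the log2 fold change of qko over WT in water minus that in dry seeds. A positive value means that the ratio of qko to WT was larger in water than in dry seeds, not that qko exceeded WT. APS1, NIA1, NIA2 and NIR1 gave positive values and had negative log2 fold changes in water.

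Among sulfur genes the values were LSU2 -1.62, GGCT2;1 -3.29, SHM7 -0.70, SULTR4;1 -1.59, SULTR4;2 -0.97, APR1 -1.13 and AST56 -2.16 on the lower side, and SERAT2;1 2.63 and APS1 1.32 on the higher side. For glucosinolate and defence genes they were CYP81F3 4.23, MYC2 1.23 and WRKY33 1.79, and for the jasmonate repressor JAZ1 -1.53. Electrophile detoxification genes gave OPR1 3.06, OPR2 3.54, CYP81D8 2.51 and GSTU1 1.07 on the higher side and UGT73B4 -0.98 on the lower side.

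For storage and oil genes the values were CRU1 -0.73, CRU2 -1.30, ICL -0.71, KAT2 -1.01 and SDP1 -1.05. For chaperones they were HSP17.6II 2.72, HSP90.1 1.53 and HSP101 1.47. Hormone genes gave CYP707A3 -1.60, NCED9 0.67, ABI4 -2.33 and GAI -1.08, and wall genes EXP3 -2.37, EXPA10 -1.90 and XTH5 -2.81. For nitrogen genes the values were NIA2 3.54, NIA1 3.34, NIR1 1.66 and GDH2 0.90 on the higher side and LBD39 -1.51 on the lower side. AOX1A gave -1.77, and the ribosome genes gave RPL5B -0.65, RPL5A -0.77 and NUC2 -0.89. Of genes outside the lists, the values were AT1G61320 5.03, AT1G12030 -0.81, DIN10 -8.03 and OPT6 -2.87.

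The values of GGCT2;1, CYP81F3, CYP707A3, NIA2, OPR2 and AT1G61320 involve a group with an average under 3 counts per library, so their size is uncertain.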

How the results depend on the processing

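In water the number of changed loci was 7953 to 8874 with 1 library left out in turn (4085 to 4558 higher and 3868 to 4316 lower). It was 3273 with a 2-fold threshold added, 1805 higher and 1468 lower. Leaving out 1 library gave 4209 to 4935 loci for the difference between water and dry seeds, 3027 to 4303 for qko against myb, 12765 to 13429 for qko against cyp, 7781 to 8631 in KNO3 and 8281 to 9047 in KSCN. Of the water calls, 50.9% were higher with TMM scaling and 50.3% with total-count scaling.

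No paired analysis was possible for qko against WT in water because these groups share no replicate numbers. qko and myb share the numbers 6 and 7 alone. Their libraries had correlations of -0.184 for number 6 and 0.255 for number 7, and with these 2 pairs the numbers were not taken to pair them. With a replicate block, fitted to the 3 qko and 3 myb libraries in water alone, 734 loci differed between qko and myb, 382 higher and 352 lower. The 4360 loci given above came from all 45 libraries without a block. These few libraries were not fitted without the block, so its part in the lower number was not tested. Same-numbered dry and water libraries had correlations of -0.041 to 0.00073.

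Calls lost or gained under an alternative in water include those of NSP2, JAZ7, GTR1, NIA1, PCK1, HSP90.1, HSP101, HSP70, OLEO2, RGL2 and RPL24A. No named result reversed. Genes with few counts, such as MYB29, PR1 and CYP71A13, and near-identical copies are limited by depth and by how reads were split.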
